A study of Rattus norvegicus with 24 samples.

Results

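The mRNAs of 10 enzymes that remove peroxides and superoxide (Cat, Gpx1, Gpx3, Gpx4, Prdx1, Prdx2, Prdx5, Prdx6, Sod1 and Sod2) were followed in rat blood. The members were chosen by gene symbol, as the array design gives it, and are 10 of 25885 gene names there. On the arrays, 11 of 30367 probes carry these symbols, 2 of them for Gpx4. Of the 11, 10 probes (9 genes) were bright enough to be tested, as were 10708 probes of the whole array. Gpx3 was not.

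Superoxide dismutases turn superoxide into hydrogen peroxide, Sod1 in the cytosol and Sod2 in the mitochondrion. Catalase, the glutathione peroxidases and the peroxiredoxins then reduce the peroxide, with glutathione or thioredoxin as the electron donor of the last 2 families. In red blood cells, whose haemoglobin is a steady source of superoxide, catalase, Gpx1, peroxiredoxin 2 and Sod1 are abundant proteins, and in phagocytes an NADPH oxidase makes superoxide on purpose.

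Blood RNA of male Sprague-Dawley rats, 8 weeks old at the start, was hybridized on 24 two-color Agilent arrays with a common reference RNA, a pool from the rats of all groups. The rats ate the semi-synthetic G0 diet or the same diet with oat beta-glucan for 6 weeks, G1 of high and G2 of low molecular weight. They were repeatedly injected intravenously with LPS (bacterial lipopolysaccharide, 10 mg/kg, groups LPS-G0, LPS-G1 and LPS-G2) or with saline (C-G0, C-G1 and C-G2). Blood was taken at the end of the 6 weeks, and each of the 6 groups had 4 arrays. LPS-G0 replicates 3 and 4 are LPS rats by title, while another label calls them controls, and they were used as LPS-G0. Whole blood is a mixture of cells, so fewer cells of a type and less RNA per cell cannot be told apart.

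By the labels Cy3 marks the RNA of the rat and Cy5 that of the pool, and the study's methods name the dyes the other way. The SD between arrays of 1 group, on the log2 scale, had a median of 0.353 in Cy3 and 0.199 in Cy5 over 7074 bright probes, and it was larger in Cy3 for 95.3% of them. Values are therefore log2 Cy3 over Cy5, called log2 ratios, and with the methods' dyes every log2 ratio and fold change below would change its sign, while the correlations would not. The correlation between 2 arrays over all probes ran from -0.158 to 0.471. Per array, 7786 to 15385 probes were well above background in Cy3. C-G1 replicate 2 and C-G0 replicate 1 stood apart, with an SD of all log2 ratios of 0.762 and 0.693 against 0.277 to 0.531 on the other 22 arrays. Markers of blood cells were present, with 19 of 21 erythroid, 9 of 9 platelet, 7 of 9 T cell, 6 of 13 neutrophil and 6 of 9 monocyte genes bright enough to be tested.

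The probes that the results turn on are shown here, 60 bases each, as the array design gives them. In capitals is the hexamer AATAAA, the usual signal for polyadenylation, which of the 11 member probes only the brighter Gpx4 probe holds.
Cat (chr3:88683063-88685007, rn4): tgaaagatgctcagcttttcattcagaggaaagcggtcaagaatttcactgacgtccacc
Gpx1 (chr16_random:1046407-1046466, rn4): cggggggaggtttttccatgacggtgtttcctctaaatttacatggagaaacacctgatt
Gpx4 brighter probe (chr7:11162522-11162581, rn4): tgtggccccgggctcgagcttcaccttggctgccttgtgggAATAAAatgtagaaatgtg
Gpx4 dimmer probe (chr7:11163817-11163876, rn4): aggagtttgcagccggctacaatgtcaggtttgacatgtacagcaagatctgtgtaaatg
Prdx2 (chr19:24836405-24836464, rn4): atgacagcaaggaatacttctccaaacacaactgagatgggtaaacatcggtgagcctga
Prdx5 (chr1:209583751-209583924, rn4): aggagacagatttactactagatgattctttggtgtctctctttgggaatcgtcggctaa
Sod1 (chr11:29810797-29810856, rn4): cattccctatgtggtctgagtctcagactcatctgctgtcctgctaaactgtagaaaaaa
The design places the Gpx1 probe on an unplaced part of chromosome 16, whereas RefSeq has Gpx1 on chromosome 8 of the newer GRCr8 assembly. For Cat and Prdx5 the coordinates span more than 60 bases, as for a probe across a splice junction. Exon and UTR annotation of rn4 was not used here.

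Members were read from 10 spots for Gpx1, 1 for the dimmer Gpx4 probe and 2 for each other probe. The tested member probes were well above background on all 24 arrays and saturated on 0. The lowest Cy3 signals were 64590 for Prdx2, 35410 for Gpx1 and 29500 for the brighter Gpx4 probe, and the Prdx1 probe, at 185.7 to 520.2, was the dimmest of those tested. Signals of different probes do not rank the transcripts.

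No member passed an adjusted p of 0.05 in any of 9 comparisons, or in the test for any difference among the 6 groups (limma, Benjamini-Hochberg over 10708 probes). Few probes of any gene did. The share called was 0.028% in LPS-G1 vs. LPS-G0, in C-G1 vs. C-G0 and in C-G2 vs. C-G0. It was 0.00934% in LPS-G1 vs. C-G1 and for any difference among the groups. It was 0% in LPS-G0 vs. C-G0, LPS-G2 vs. LPS-G0, LPS-G2 vs. C-G2, LPS-G1 vs. LPS-G2 and C-G1 vs. C-G2. The 1 probe called for any difference lies in Fam111a. At an unadjusted p under 0.05, 12 of 81 pairs of a member gene and a comparison (14.8%) passed, beside 11.7% of all 96372 pairs of a tested probe and a comparison. The 2 shares are near each other, so the count is no result about the members.

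By comparison, the same unadjusted threshold was passed by 3 of 10 member probes in C-G1 vs. C-G0, where 27.9% of all probes passed, and by 3 in C-G1 vs. C-G2, where 15.4% did. It was passed by 2 in LPS-G2 vs. LPS-G0 (5.29% of all probes), by 2 in LPS-G1 vs. C-G1 (2.81%), by 1 in LPS-G1 vs. LPS-G0 (23.7%) and by 1 in C-G2 vs. C-G0 (13.3%). None passed in LPS-G0 vs. C-G0 (11.3%), LPS-G2 vs. C-G2 (1.09%) or LPS-G1 vs. LPS-G2 (4.21%). For any difference among the groups 2 passed, Cat and Prdx5, beside 23.3% of all probes. The median log2 fold change of the 9 genes lay between -0.23 in C-G1 vs. C-G2 and 0.16 in LPS-G2 vs. LPS-G0, and that of all tested probes between -0.015 and 0.066 over the 9 comparisons.

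**Figure D1:**
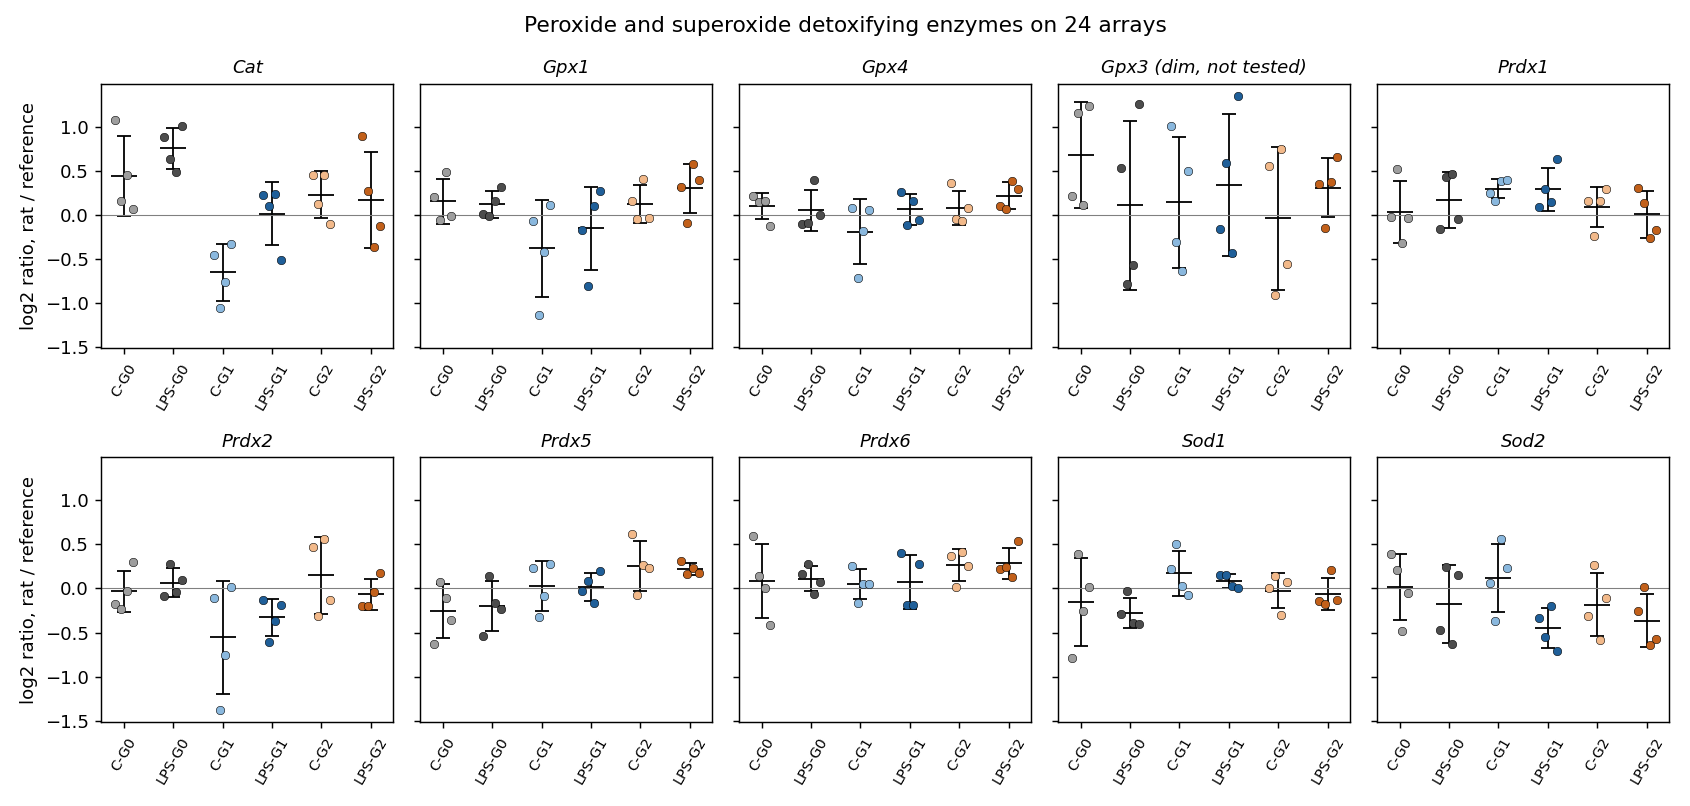
Each panel is 1 gene, with the log2 ratio of rat over reference on the vertical axis and the 6 groups on the horizontal axis. Points are single arrays, and the bars show mean ± SD (n = 4). Cat in C-G1, between -1.06 and -0.34, lies below its arrays in every other group except LPS-G1 and LPS-G2, and Gpx3, a dim probe, scatters most within its groups.

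**Figure D2:**
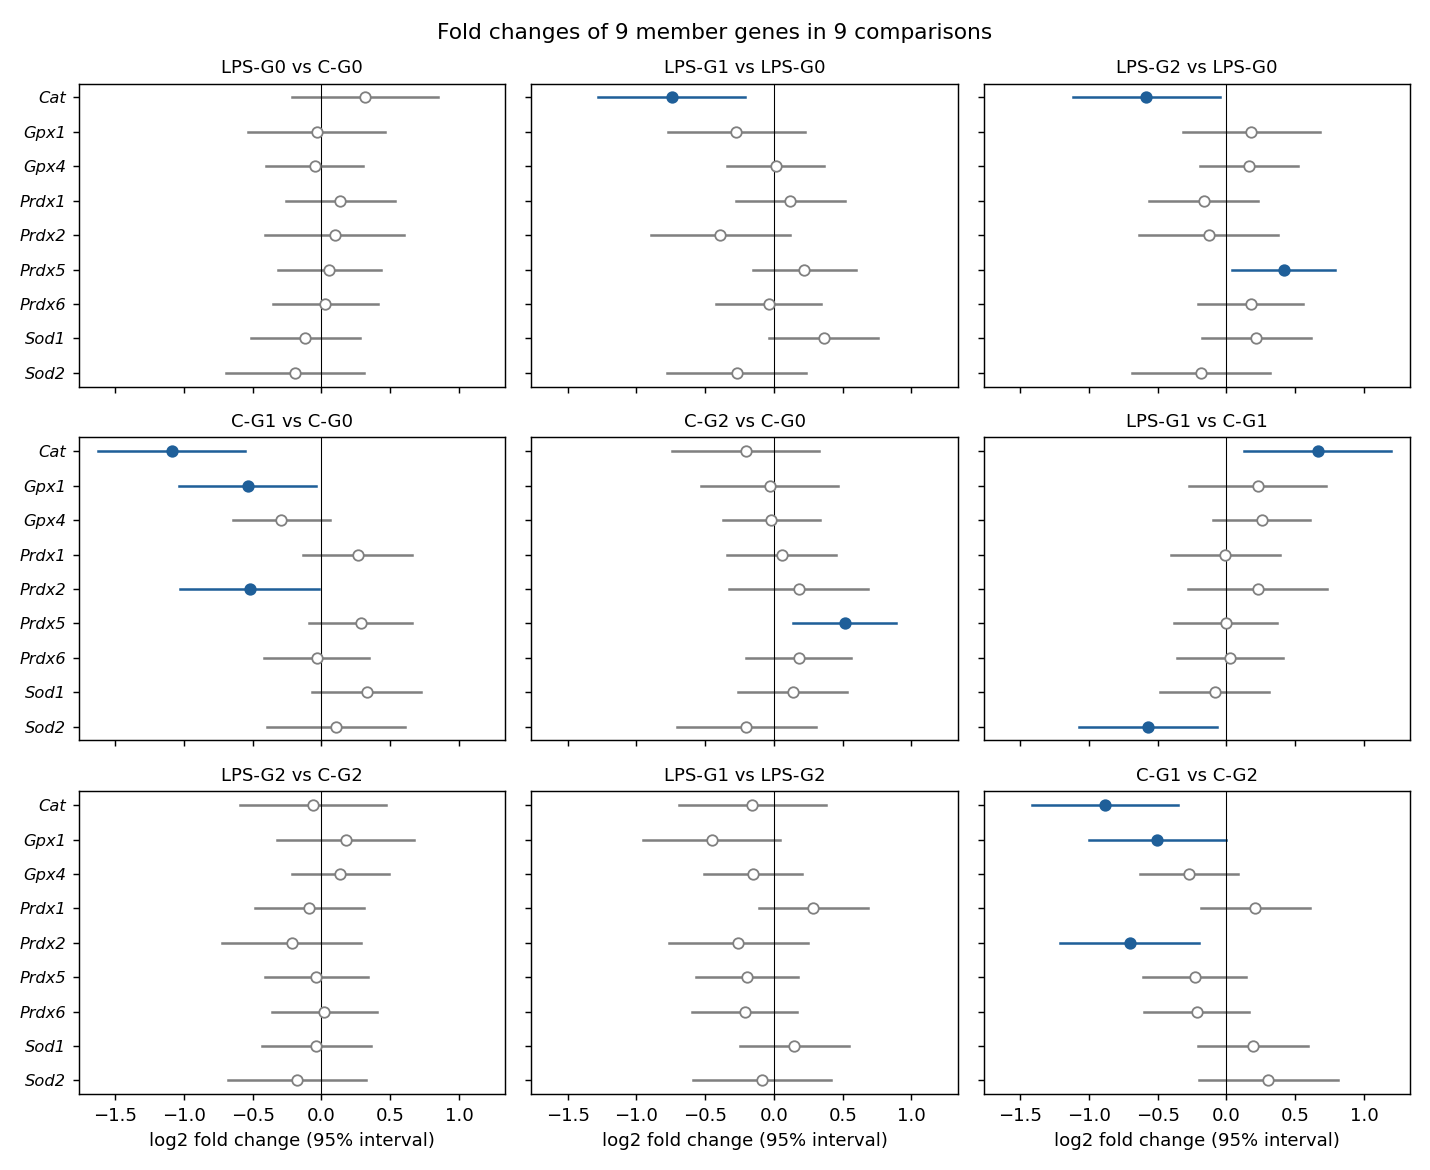
Each panel is 1 comparison, with the log2 fold change of the first named group over the second on the horizontal axis and the 9 tested genes on the vertical axis. Points are estimates of the linear model, lines are 95% intervals before adjustment, and filled blue marks an unadjusted p under 0.05. Cat is marked in 5 panels, and LPS-G0 vs. C-G0, LPS-G2 vs. C-G2 and LPS-G1 vs. LPS-G2 hold no mark.

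Cat, the haem enzyme that splits hydrogen peroxide into water and oxygen, varied most between groups. In C-G0 its log2 ratios were 1.07, 0.16, 0.45 and 0.062, and in C-G1 they were -0.46, -1.06, -0.76 and -0.34. All 4 C-G1 arrays were below all 4 C-G0 arrays. The log2 fold change was -1.09 (standard error 0.26, 95% interval -1.62 to -0.56), a level 2.13-fold lower on the high-molecular-weight beta-glucan diet. Unadjusted p was 0.000332, rank 18 of 10708 probes, and the adjusted p was 0.104 (limma). The exact permutation test gave 0.0286, two-sided, which is the smallest p that 4 arrays against 4 allow. The share of all tested probes without overlap between groups was not computed, for this or the comparisons below.

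With LPS, Cat log2 ratios were 0.88, 0.63, 0.49 and 1.01 in LPS-G0, and 0.22, 0.096, 0.24 and -0.52 in LPS-G1. The LPS-G1 arrays were again all below those of the G0 diet, by a log2 fold change of -0.74 (standard error 0.26, unadjusted p = 0.00855, adjusted p = 0.114, limma; exact permutation p = 0.0286, two-sided). In LPS-G2 the values were 0.89, 0.27, -0.36 and -0.12, a wide spread that overlapped LPS-G0. That log2 fold change was -0.58 (standard error 0.26, unadjusted p = 0.0333, adjusted p = 0.766, limma; exact permutation p = 0.143, two-sided).

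The G2 diet without LPS gave Cat log2 ratios of 0.45, 0.12, 0.45 and -0.10, all above every C-G1 array. The log2 fold change of C-G1 vs. C-G2 was -0.88 (standard error 0.26, unadjusted p = 0.00236, adjusted p = 0.323, limma; exact permutation p = 0.0286, two-sided). With LPS the difference between the 2 glucans was -0.16 (95% interval -0.69 to 0.38), and the groups overlapped. LPS-G1 was above C-G1 by 0.66 (standard error 0.26, unadjusted p = 0.0171, adjusted p = 0.95, limma; exact permutation p = 0.0857, two-sided). The LPS effect on the G1 diet exceeded that on the G0 diet by 0.35 (standard error 0.36, unadjusted p = 0.351, limma), so a difference between diets in the response to LPS was not shown.

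Over all 6 groups Cat had an unadjusted p of 0.000569 and an adjusted p of 0.119 (limma), rank 27 of 10708. Within slides, the C-G1 minus C-G0 difference of Cat was -1.08, -1.36 and -0.40 on slides 1, 2 and 3. The LPS-G1 minus LPS-G0 difference was -0.53, -0.32 and -1.53. With slide as a block the 2 fold changes were -1.02 (adjusted p = 0.0999) and -0.67 (adjusted p = 0.149). The LPS-G2 minus LPS-G0 difference was 0.14, -0.22 and -1.26 on the 3 slides, so its sign was not the same on each. The LPS-G1 minus C-G1 difference was 0.68, 1.08 and -0.18, with a change of sign on slide 3, and the C-G1 minus C-G2 difference was -0.91, -1.03 and -0.51. Without C-G0 replicate 4 the adjusted p of C-G1 vs. C-G0 was 0.0124, with 963 of 10708 probes called, and over the 24 fits that each leave out 1 array it ran from 0.0124 to 0.449. Without the 2 arrays that stood apart the fold change in C-G1 vs. C-G0 was -0.74 (adjusted p = 0.711), and that in LPS-G1 vs. LPS-G0 stayed at -0.74, with an adjusted p of 0.0367 and 1503 of 10708 probes called.

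Gpx1, the selenium enzyme of the cytosol that reduces hydrogen peroxide with glutathione, had log2 ratios of 0.20, -0.065, 0.49 and -0.016 in C-G0. In C-G1 they were -0.073, -1.14, -0.43 and 0.11, and the groups overlapped. The log2 fold change was -0.53 (standard error 0.24, unadjusted p = 0.0367, adjusted p = 0.161, limma; exact permutation p = 0.114, two-sided). Against C-G2, with 0.16, -0.052, 0.41 and -0.034, it was -0.50 (standard error 0.24, unadjusted p = 0.048, adjusted p = 0.324, limma; exact permutation p = 0.114, two-sided). Both values rested on C-G1 replicate 2, at -1.14 the lowest of the 24 arrays, and without it they were -0.28 and -0.25. Within slides the C-G1 minus C-G0 difference was -0.14, -1.27 and 0.13, and the C-G1 minus C-G2 difference -0.23, -0.73 and -0.079. In the LPS groups the Gpx1 log2 ratio was 0.30 ± 0.28 on the G2 diet, 0.12 ± 0.15 on the G0 diet and -0.16 ± 0.47 on the G1 diet (SD, n = 4).

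Gpx4 reduces lipid peroxides within membranes. The brighter Gpx4 probe had group means from -0.19 ± 0.37 in C-G1 to 0.21 ± 0.15 in LPS-G2 (SD, n = 4), and no comparison passed an unadjusted p of 0.05. Its lowest such p was 0.1, for a log2 fold change of -0.29 in C-G1 vs. C-G0 (95% interval -0.65 to 0.061). The 2 probes had a Pearson r of 0.879 over 24 arrays, and both were lowest on C-G1 replicate 2, at -0.72 and -1.02. Gpx3, the secreted peroxidase of plasma, was well above background on 8 of 24 arrays, 1 or 2 in each group. These were replicate 4 of each group, all on slide 3, and replicate 1 of C-G1 and of LPS-G2, on slide 1. Its Cy3 signal was 11.96 to 71.83, so a level in blood cells could not be given.

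Prdx2 is a thioredoxin-dependent peroxidase of the cytosol. In C-G1 its log2 ratios were -0.11, -1.38, -0.75 and 0.018, in C-G0 -0.17, -0.24, -0.023 and 0.30, and in C-G2 0.47, -0.32, 0.56 and -0.13. Only C-G1 replicates 2 and 3 lay below every array of the other 2 groups. The log2 fold change was -0.52 against C-G0 (standard error 0.24, unadjusted p = 0.0439, adjusted p = 0.17, limma; exact permutation p = 0.257, two-sided). Against C-G2 it was -0.70 (standard error 0.24, unadjusted p = 0.00859, adjusted p = 0.323, limma; exact permutation p = 0.171, two-sided). Without C-G1 replicate 2, the lowest of the 24 arrays, the values were -0.25 and -0.43. Within slides the C-G1 minus C-G0 difference was 0.097, -1.04 and -0.28, and the C-G1 minus C-G2 difference -0.58, -0.75 and -0.20. With LPS, Prdx2 was between -0.60 and -0.13 in LPS-G1 and between -0.090 and 0.28 in LPS-G0, without overlap. That log2 fold change was -0.39 (95% interval -0.89 to 0.12, unadjusted p = 0.125, adjusted p = 0.313, limma; exact permutation p = 0.0286, two-sided).

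Prdx5, the peroxiredoxin of mitochondria, peroxisomes and cytosol, had its higher values on the G2 diet. Its log2 ratios were -0.63, 0.069, -0.11 and -0.36 in C-G0 and 0.61, -0.080, 0.26 and 0.23 in C-G2, with 3 of 4 C-G2 arrays above all of C-G0. The log2 fold change was 0.51 (standard error 0.18, unadjusted p = 0.00919, adjusted p = 0.252, limma; exact permutation p = 0.0571, two-sided). In LPS-G0 they were -0.54, 0.14, -0.16 and -0.23, and in LPS-G2 0.31, 0.16, 0.23 and 0.17. All LPS-G2 arrays lay above all LPS-G0 arrays, by 0.42 (standard error 0.18, unadjusted p = 0.0303, adjusted p = 0.766, limma; exact permutation p = 0.0286, two-sided). Within slides the LPS-G2 minus LPS-G0 difference was 0.51, 0.32 and 0.43, and the C-G2 minus C-G0 difference was 0.89, 0.032 and 0.61. Of the phagocyte markers, 2 of 6 monocyte and 3 of 6 neutrophil genes passed an unadjusted p of 0.05 in LPS-G2 vs. LPS-G0, all higher, where 5.29% of all probes passed, with median log2 fold changes of 0.38 and 0.62. The monocyte median was -0.38 to -0.058 in LPS-G0 and -0.22 to 0.27 in LPS-G2, and the neutrophil median -0.57 to -0.17 and -0.26 to 0.64. Not all markers went this way, and Fcgr3a of the neutrophil list was at -0.46. In C-G2 vs. C-G0, where 13.3% of all probes passed, 1 of 6 genes of each list did, both higher. The median log2 fold change there was 0.38 for the monocyte list and 0.23 for the neutrophil list. The neutrophil genes S100a9, Camp and Cxcr2 were at 0.0072, 0.14 and -0.30. Over the 24 arrays Prdx5 had r = 0.231 with the neutrophil median (permutation p = 0.28, adjusted 0.44) and rho = 0.234 (permutation p = 0.27, adjusted 0.48). On deviations from group and slide means that r was 0.026. No such relation was computed with the monocyte median. A probe of Fcgr1a, a gene of the monocyte list, was among those most like Prdx5 (r = 0.797). The part of these cells in the difference of Prdx5 was not tested. With the G1 diet Prdx5 means were 0.026 ± 0.28 in C-G1 and 0.021 ± 0.16 in LPS-G1 (SD, n = 4), between those of the other diets. The test for any difference gave Prdx5 an unadjusted p of 0.0469 and an adjusted p of 0.209 (limma).

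Prdx1, a peroxiredoxin of the cytosol, and Prdx6, which also has phospholipase activity, passed no test. Prdx1 group means ran from 0.0027 to 0.30 and Prdx6 group means from 0.049 to 0.29, with SDs of 0.11 to 0.42 between the 4 arrays of a group. The largest Prdx1 difference was 0.29 in LPS-G1 vs. LPS-G2 (95% interval -0.11 to 0.68). The largest Prdx6 difference was -0.22 in C-G1 vs. C-G2 (95% interval -0.60 to 0.17).

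Sod1, the copper and zinc dismutase, was the member whose log2 ratios ran against those of Cat. In LPS-G0 they were -0.29, -0.034, -0.39 and -0.40 and in LPS-G1 0.15, 0.16, 0.025 and 0.0091, without overlap. The log2 fold change of 0.36 (95% interval -0.033 to 0.76) had an unadjusted p of 0.0708 and an adjusted p of 0.241 (limma), and an exact permutation p of 0.0286, two-sided. Like Prdx2 in this comparison, Sod1 missed the unadjusted threshold and was added after its values were seen. The share of all tested probes without overlap there was not computed. For Sod2, the manganese dismutase that inflammatory signals are known to induce, LPS-G0 vs. C-G0 gave -0.19 (95% interval -0.69 to 0.31), and the groups overlapped, at -0.48 to 0.39 in C-G0 and -0.63 to 0.25 in LPS-G0. LPS-G1 had Sod2 log2 ratios of -0.34, -0.55, -0.19 and -0.71 and C-G1 0.058, -0.37, 0.56 and 0.24. That log2 fold change was -0.57 (standard error 0.24, unadjusted p = 0.0284, adjusted p = 0.95, limma; exact permutation p = 0.0857, two-sided). Within slides it was -0.40, -0.46 and -0.95.

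Between pairs of members, 36 correlations over the 24 arrays were computed, and 3 had an adjusted permutation p under 0.05 for Pearson's r. The share among pairs of other tested probes was not computed, so these 3 are not shown to be particular to the members. Gpx1 and Prdx2 had r = 0.763 (permutation p = 0.00011, adjusted 0.002) and Spearman's rho = 0.613 (permutation p = 0.0019, adjusted 0.034). Gpx1 and Gpx4 had r = 0.705 (permutation p = 0.00031, adjusted 0.0037) and rho = 0.472 (permutation p = 0.021, adjusted 0.15). Without the 2 arrays farthest from the Gpx1 median, r was 0.487 and 0.418. Cat and Sod1 had r = -0.716 (permutation p = 7e-05, adjusted 0.002) and rho = -0.723 (permutation p = 1e-04, adjusted 0.0036), and -0.677 without the 2 arrays farthest from the Cat median. After group and slide means were removed, the 3 values of r were 0.603, 0.672 and -0.757. These values include C-G1 replicate 2, the lowest array of Cat, Gpx1, Gpx4 and Prdx2 and the highest of Sod1. They were not tested, and not computed without that array.

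**Figure D3:**
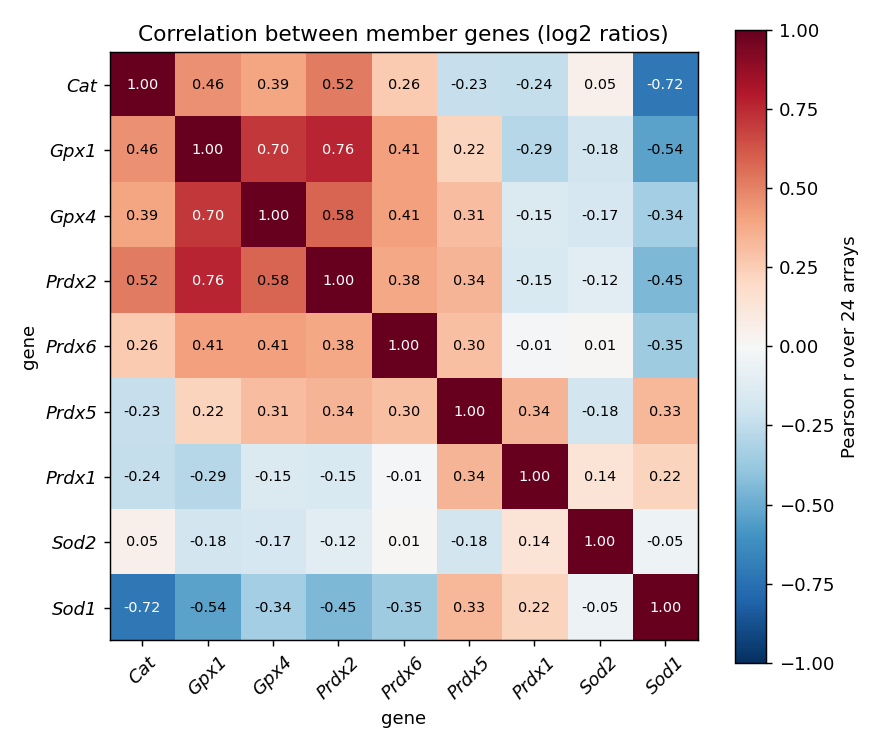
Rows and columns are the 9 tested genes, and each cell gives Pearson's r of their log2 ratios over 24 arrays, from blue (-1) to red (1). The order of the genes was set by hand. Among Cat, Gpx1, Gpx4, Prdx2 and Prdx6 all values are positive, from 0.26 to 0.76, and Sod1 is negative with each of them, from -0.72 with Cat to -0.34 with Gpx4. Only 3 of the 36 pairs had an adjusted permutation p under 0.05. Without the 2 arrays farthest from the Gpx4 median, r of Gpx4 with Sod1 was 0.039.

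Cat, Gpx1 and Prdx2 were set against markers of red cells. Of 21 erythroid genes listed, 20 were found by name and 19 tested, among them Slc4a1 (the anion exchanger of the red cell membrane) and Gata1, an erythroid transcription factor. In C-G1 vs. C-G0, 11 of 19 passed an unadjusted p of 0.05, all lower in C-G1, where 27.9% of all probes passed, and their median log2 fold change was -0.87, beside 0.021 for all tested probes. Slc4a1 was at -1.09 (standard error 0.25, unadjusted p = 0.000232, adjusted p = 0.104, limma). These values include C-G1 replicate 2, with a list median of -1.38, and C-G0 replicate 1, with 0.47. They were not computed without these arrays. The middle array value of the list median was -0.34 in C-G1 and 0.081 in C-G0. The haemoglobin genes did not pass, with Hba-a2 at -0.13 and Hbb at 0.077, nor did Alas2, of haem synthesis, at -0.18, or the transferrin receptor Tfrc at -0.012. In LPS-G1 vs. LPS-G0, 5 of 19 passed, all lower, with a median of -0.32. That share is near the 23.7% of all probes, and Hba-a2 was at 0.071, Hbb at 0.16, Alas2 at 0.018 and Rhag, of the Rh complex, at 0.58. The median log2 ratio of the list was -0.10 to 0.47 in C-G0, -1.38 to -0.19 in C-G1 and -0.48 to 0.11 in C-G2. With LPS it was 0.017 to 0.37 in LPS-G0, -0.33 to -0.0031 in LPS-G1 and -0.075 to 0.16 in LPS-G2. C-G1 and LPS-G1 each lay wholly below the group of the G0 diet with the same injection. With LPS the gap was narrow, from -0.0031 to 0.017. The share of single probes that separate these groups was not computed.

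Each of the 10 members was set against the erythroid, neutrophil and T cell medians, 30 relations in all, with 100000 permutations each. With the erythroid list Cat had r = 0.772 (permutation p = 1e-05, the smallest these permutations can give, adjusted 3e-04) and rho = 0.758 (permutation p = 3e-05, adjusted 0.00045). Gpx1 had r = 0.741 (permutation p = 0.00031, adjusted 0.0031) and rho = 0.578 (permutation p = 0.0036, adjusted 0.036). Prdx2 had r = 0.717 (permutation p = 0.00098, adjusted 0.0074) and rho = 0.46 (permutation p = 0.025, adjusted 0.15). Sod1 ran the other way, with r = -0.725 (permutation p = 2e-04, adjusted 0.003) and rho = -0.786 (permutation p = 2e-05, adjusted 0.00045).

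The arrays farthest from the erythroid median were again C-G1 replicate 2 and C-G0 replicate 1. Without them r was 0.678 for Cat, 0.527 for Gpx1, 0.521 for Prdx2 and -0.582 for Sod1. For Gpx4, r was 0.613 (permutation p = 0.0096, adjusted 0.048) with rho = 0.252 (permutation p = 0.23, adjusted 0.48), and 0.111 without these 2 arrays, so that relation rested on them. For Prdx6, r was 0.386 (permutation p = 0.063, adjusted 0.16) and rho 0.32 (permutation p = 0.13, adjusted 0.39), and r was 0.131 without these 2 arrays. On deviations from group and slide means r was 0.514 for Cat, 0.743 for Gpx1, 0.723 for Prdx2 and -0.71 for Sod1. On slides 1, 2 and 3 alone, with 8 arrays each, r for Cat was 0.879, 0.918 and 0.322, for Gpx1 0.5, 0.88 and 0.566, and for Sod1 -0.877, -0.903 and -0.458. For Prdx2 it was -0.037, 0.979 and 0.598, so on slide 1 the relation was not seen.

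Such values were common on these arrays. Of the tested probes outside the list, 26% had an r of at least 0.5 with the erythroid median and 20.6% one of -0.5 or below. An r as high as that of Cat was reached by 8.26%, of Gpx1 by 10.6% and of Prdx2 by 12.5%, and one as low as that of Sod1 by 1.86%. What part the erythroid list has in the group differences of Cat, Gpx1 and Prdx2 was not tested. With the neutrophil list no member had an adjusted p under 0.05. With the T cell list Gpx4 had r = -0.591 (permutation p = 0.0019, adjusted 0.011) and rho = -0.549 (permutation p = 0.0063, adjusted 0.047), and -0.44 without the 2 farthest arrays. On deviations from group and slide means that r was -0.577. The share of other tested probes with such an r was not computed for the T cell list.

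**Figure D4:**
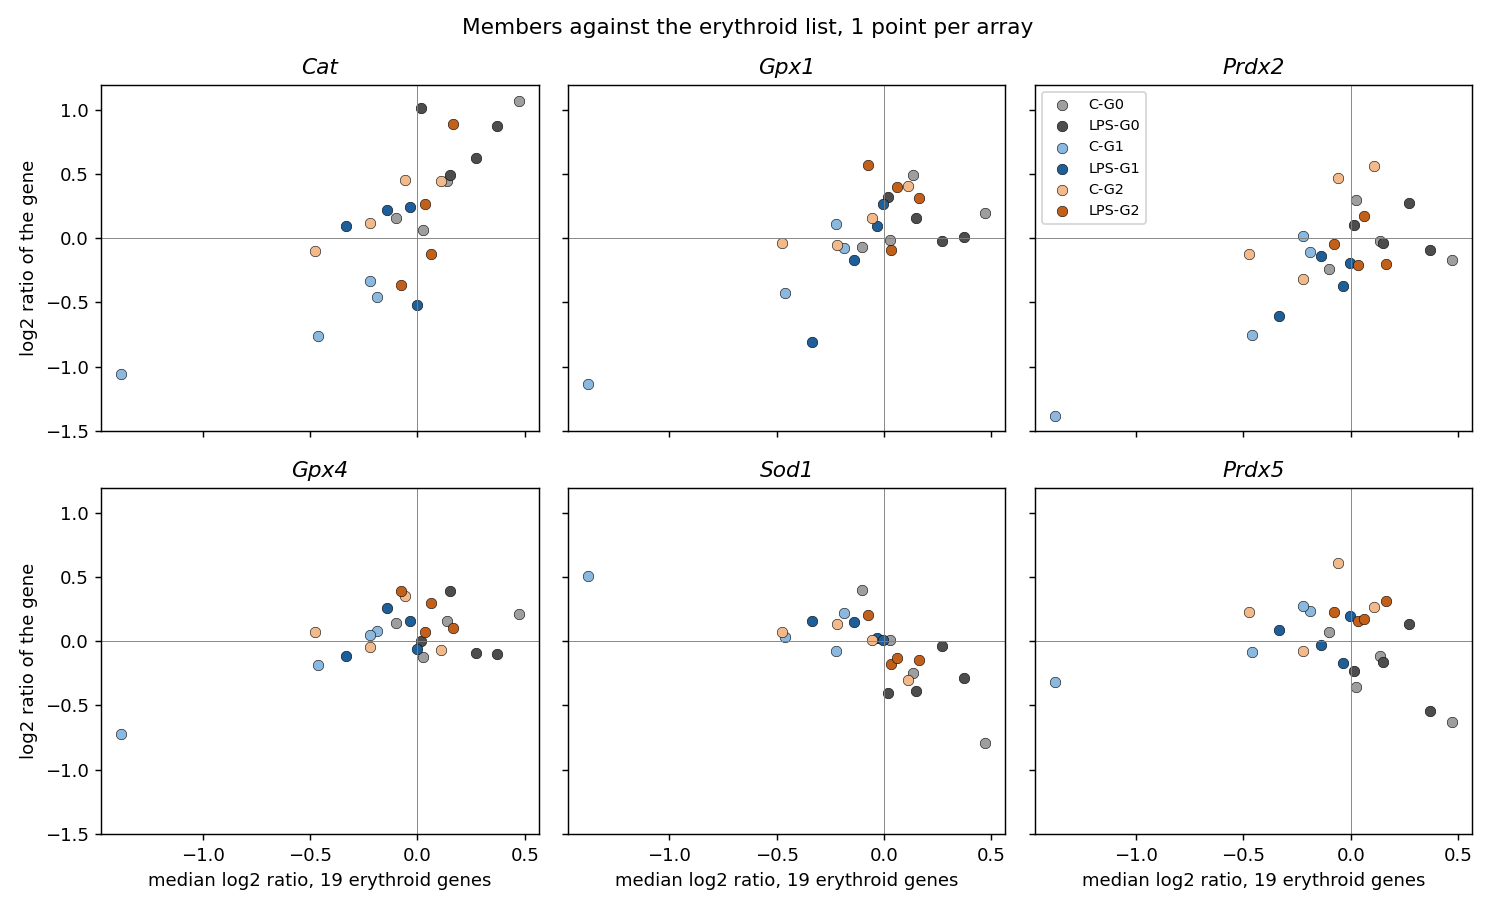
Each panel is 1 gene, each point 1 of the 24 arrays, colored by group. The horizontal axis is the median log2 ratio of 19 erythroid genes and the vertical axis that of the gene. Cat (r = 0.772) rises and Sod1 (r = -0.725) falls along the axis, C-G1 replicate 2 is the point at -1.38, and Prdx5 has an r of -0.080.

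The 3 probes of other genes most like each member were found by Pearson's r over 24 arrays. Those of Prdx2 included Rhd (0.921), the Rh blood group protein, and an unnamed probe (0.906). For Gpx1 they were Selenbp1 (0.906), H2afj (0.868) and Abcb6 (0.863). For Gpx4 they were H2afj (0.825), LOC680322 (0.796) and Hist2h2ac (0.789). Those of Cat included Fam124a (0.896) and Psmd11 (0.886), and Sod1 was most like Laptm5 (0.894), Srf (0.888) and Rps15 (0.877). For Prdx5 they were Capg (0.861), Fcgr1a (0.797), the high-affinity IgG receptor, and Vim (0.778). Prdx1 (0.805 with an unnamed probe, Cct2 0.728, Psmb1 0.718), Prdx6 (Cd99 0.749, 2 unnamed probes 0.72 and 0.717) and Sod2 (Tmx1 0.703, Ywhaz 0.701, Btbd10 0.685) had weaker neighbours.

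Promoters are shown for Cat, Gpx1 and Prdx2, the members with an unadjusted p under 0.05 in C-G1 vs. C-G0, from 250 bases before to 50 after the start of the gene (RefSeq, GRCr8). In capitals are matches on either strand to GATAA, the core bound by GATA factors, and to CCAAT.
Cat promoter (chr3:110329477-110329776, - strand, GRCr8): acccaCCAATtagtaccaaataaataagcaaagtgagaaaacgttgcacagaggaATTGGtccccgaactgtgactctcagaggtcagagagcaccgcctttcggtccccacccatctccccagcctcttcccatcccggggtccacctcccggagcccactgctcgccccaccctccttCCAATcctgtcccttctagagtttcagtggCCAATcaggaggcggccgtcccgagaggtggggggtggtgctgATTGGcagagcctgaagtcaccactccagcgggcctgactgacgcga
Gpx1 promoter (chr8:117905212-117905511, + strand, GRCr8): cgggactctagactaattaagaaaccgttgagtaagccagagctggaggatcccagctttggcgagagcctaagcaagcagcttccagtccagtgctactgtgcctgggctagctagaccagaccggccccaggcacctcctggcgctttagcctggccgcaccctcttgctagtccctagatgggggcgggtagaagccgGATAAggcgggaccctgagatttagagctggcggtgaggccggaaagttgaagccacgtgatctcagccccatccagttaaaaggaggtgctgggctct
Prdx2 promoter (chr19:40090933-40091232, - strand, GRCr8): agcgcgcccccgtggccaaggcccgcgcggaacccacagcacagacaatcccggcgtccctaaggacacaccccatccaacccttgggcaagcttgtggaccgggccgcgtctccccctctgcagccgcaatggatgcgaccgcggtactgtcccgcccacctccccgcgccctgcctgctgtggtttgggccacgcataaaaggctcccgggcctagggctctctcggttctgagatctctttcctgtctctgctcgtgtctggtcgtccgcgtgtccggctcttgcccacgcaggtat
Of 33469 rat promoters of this length, 26.5% hold GATAA and 37.5% hold CCAAT, on either strand. Gpx1 holds 1 GATAA and Cat 5 CCAAT, and Prdx2 neither. The letters TGANNNNGC, the core of the antioxidant response element, are in 40.5% of promoters. They are in those of Gpx1 (1 match), Prdx1 (2), Prdx5 (1) and Sod2 (1) and in 2 of 3 listed for Gpx4, and not in those of Cat, Gpx3, Prdx2 and Sod1. These are matches of letters and no binding was measured.

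The genes around the members were tested in lists by role, and none passed an adjusted p of 0.05 in any comparison. Of 22 partners that reduce or depend on thioredoxin and glutathione, 14 were tested. At the unadjusted threshold 2 passed in LPS-G1 vs. LPS-G0 (23.7% of all probes) and 2 with the G2 diet in its place (5.29%), all higher. In C-G1 vs. C-G0 (27.9%) 3 were higher and 1 lower. Glrx5, a mitochondrial glutaredoxin of iron-sulphur cluster assembly, was that lower gene, at -0.82 (standard error 0.22, unadjusted p = 0.000868, adjusted p = 0.104, limma). Msrb1, a selenoprotein that repairs oxidized methionine, was at 0.75 in LPS-G2 vs. LPS-G0 (standard error 0.20, unadjusted p = 0.00126, adjusted p = 0.766, limma).

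Of 8 genes that supply NADPH 6 were tested, and in C-G2 vs. C-G0 2 passed, both higher, beside 13.3% of all probes. Tkt, an enzyme of the pentose phosphate pathway, was at 0.51 in LPS-G2 vs. LPS-G0 (unadjusted p = 0.0115, adjusted p = 0.766, limma). Of 11 genes of the Nrf2 pathway, which induces many antioxidant enzymes, 8 were tested. In LPS-G0 vs. C-G0 2 passed, both higher, beside 11.3% of all probes, with Nqo1 at 0.70 (unadjusted p = 0.0218, adjusted p = 0.421, limma), and in C-G1 vs. C-G2 3 passed, all lower, beside 15.4%. Blvrb, the biliverdin reductase that is abundant in red cells, was at -0.70 in C-G1 vs. C-G0 (unadjusted p = 0.0159, adjusted p = 0.136, limma).

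Of the 6 subunits of the phagocyte NADPH oxidase 5 were tested. With LPS, 2 of 5 passed on the G1 against the G0 diet (23.7% of all probes) and 2 on the G2 against the G0 diet (5.29%), all higher, and the list medians were 0.48 and 0.45 beside 0.066 and -0.015 for all probes. Cyba was at 0.61 in LPS-G2 vs. LPS-G0 (unadjusted p = 0.0162, adjusted p = 0.766, limma) and Ncf4 at 0.42 in C-G2 vs. C-G0 (unadjusted p = 0.00617, adjusted p = 0.234, limma). Of 8 genes of selenoprotein synthesis, on which the Gpx enzymes depend, 7 were tested. Secisbp2 and Scly had the lowest p for any difference, 0.0791 and 0.165 before adjustment (limma), and Secisbp2 was at 0.50 in LPS-G1 vs. LPS-G0 (unadjusted p = 0.0328, adjusted p = 0.172, limma). Of 8 further peroxidases and dismutases of the same families, only Prdx3 was bright enough, and it passed no test.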

How the data were processed

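The deposited files are Feature Extraction output of 24 arrays, 1 per sample. Per the file headers, the authors' processed intensities were background-subtracted and dye-balanced by Lowess, and the deposited log10 ratio is Cy5 over Cy3. It was turned to log2 Cy3 over Cy5. The headers name version 10.10.1.1 of Agilent Feature Extraction and the submitters' processing notes 10.7.3.1. The deposited series-wide values, 1511424 log10 ratios, equal those of the arrays. Controls and outlier spots (679 to 1133 per array) were left out, and spots of a probe were averaged (30367 probes).

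Tested probes had at least 0.5 of their spots well above background in Cy3 on each of the 4 arrays of 1 group or more. One linear model of 6 group means over 24 arrays was fitted with limma 3.58.1 (R 4.3.3), with two-sided moderated tests and Benjamini-Hochberg adjustment over 10708 probes. Probes with an adjusted p under 0.05 are named called, whatever their fold. Single values were also tested by exact permutation over 70 arrangements. The fit was tested on simulated data. Of several probes of a gene, the brightest in Cy3 stood for it. Member fold changes with an unadjusted p under 0.05, the 2 genes with the lowest p in each pathway list, any called list gene, and the 3 most alike probes were named. Prdx2 and Sod1 in LPS-G1 vs. LPS-G0, and the erythroid and neutrophil genes, were added after their values were seen. A few genes that this rule names are not reported here. Members and lists were chosen with earlier results of these data known. The labels call the arrays of a group biological replicates, and their number limits the precision. The 3 slides of 8 arrays each held all 6 groups, and slide was tried as a block. Figures were drawn with matplotlib 3.10.9 in Python 3.11.15. Promoters are RefSeq's, found for 9 of 10 members by symbol. The accessions of 11 of 11 member probes were found in the RefSeq table.

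Alternatives were no filter, a stricter filter, normexp (offset 50) with loess, Cy3 alone scaled to the 75th percentile, slide or replicate number as a block, array weights, 16 arrays only, Tukey's test after the analysis of variance that the methods name, and leaving out arrays.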

Additional observations from a re-analysis of the deposited data

Results flagged for a closer look

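In LPS-G2, Sod1 on replicate 3 had a log2 ratio of 0.20, while the other replicates had -0.14, -0.18 and -0.13. Its gap to the nearest of them was 0.881 of the range of the group, above Dixon's 95% critical value for 4 samples. It was the 1 such value among 54 combinations of a member gene and a group, and chance gives about 1 in 20. No difference between diets in the effect of LPS passed an adjusted p of 0.05 for the 9 tested genes (18 interaction tests, limma). The lowest unadjusted p among them was 0.221, for Gpx4 on the G1 against the G0 diet.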

How the results depend on the processing

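Member fold changes with an unadjusted p under 0.05 (limma) were followed under the alternatives, and none of them changed its sign. The others named with a test were not followed. These include Prdx2 and Sod1 in LPS-G1 vs. LPS-G0, Gpx4 in C-G1 vs. C-G0, and the difference between diets in the LPS effect on Cat. The count of members called at an adjusted p under 0.05 was 0 in each comparison, and it became 1, always Cat, under these settings. In LPS-G1 vs. LPS-G0 it was 1 with the replicate block (Cat adjusted p = 0.0409), with array weights (0.0141) and without the 2 arrays that stood apart (0.0367), the last chosen after seeing the data. Of all 10708 probes, 1008, 3017 and 1503 were called under these settings. In C-G1 vs. C-G0 it was 1 with the replicate block (0.0421) and 0 to 1 when 1 array was left out, and for any difference it was 1 with the replicate block and 0 to 1. The replicate block called 600 of all probes in C-G1 vs. C-G0 and 1319 for any difference. Without C-G0 replicate 4, the array that gave both, 963 of 10708 probes were called in C-G1 vs. C-G0, where 3 were with it, and 144 for any difference. The replicate numbers do not mark pairs. Of 60 same-numbered pairs of arrays 28 correlated above 0.1 in their deviations from group means, the lowest at -0.306, and the mean was 0.111 against -0.0377 for different numbers. The number goes in part with the slide, since each replicate 1 was on slide 1 and each replicate 4 on slide 3. For arrays of the same slide the mean was also 0.111, against -0.0545 for different slides. The replicate block changed no other call at the adjusted threshold.

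Counts at an unadjusted p under 0.05 were small and moved easily. In LPS-G1 vs. LPS-G0 the count of 1 became 2 with normexp and with the 16 arrays, 3 with array weights, and 0 with Cy3 alone and with Tukey's test, and was 1 to 2 when 1 array was left out (2 without C-G0 replicate 1 or 2 or LPS-G0 replicate 2). In LPS-G2 vs. LPS-G0 the 2 became 1 with Cy3 alone or the slide block and 0 without the LPS-G0 arrays whose labels disagree or with Tukey's test (0 to 2, with 0 without LPS-G0 replicate 1 or 4 or LPS-G2 replicate 3, and 1 without LPS-G2 replicate 1 or 4). In C-G1 vs. C-G0 the 3 became 1 with array weights or without the 2 arrays that stood apart (1 to 6, with 6 without C-G0 replicate 2 and 1 without C-G0 replicate 3 or C-G1 replicate 3). In C-G1 vs. C-G2 the 3 became 1 with Cy3 alone, array weights or without those 2 arrays (1 to 4, with 1 without C-G1 replicate 2). In LPS-G1 vs. C-G1 the 2 became 0 with Cy3 alone (1 to 2, with 1 without C-G1 replicate 2, 3 or 4 or LPS-G1 replicate 2 or 4). In LPS-G1 vs. LPS-G2 the 0 became 1 with normexp, the replicate block, the 16 arrays or without those 2 arrays, and 2 with array weights (0 to 1, with 1 without C-G1 replicate 2, LPS-G1 replicate 4 or LPS-G2 replicate 2). In LPS-G0 vs. C-G0 the 0 became 2 without those 2 arrays (0 to 0). For any difference the 2 became 1 with the 16 arrays, without the LPS-G0 arrays whose labels disagree, or without the arrays that stood apart (1 to 4, with 4 without C-G1 replicate 4). Averaging the probes of a gene would change Gpx4 alone, and neither of its probes had an unadjusted p under 0.05 in any comparison.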
